A study of Mus musculus with 41 samples.

Results

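Of the 6671 sites that carried MYC-tagged wild-type SOX9 (WT-SOX9) in cultured keratinocytes, 2350 (35.2%, 95% Wilson interval 34.1 to 36.4) lay on no MLL3/4 peak, with or without doxycycline (DOX), and on no MYC-tag peak of uninduced cells. These sites are called WT-SOX9 sites without MLL3/4 here. They were chosen from 4 peak lists by the absence of any overlap of 1 bp or more, so their lack of MLL3/4 in culture is how they were picked and not a result. The other sites served for comparison. Of these, 2451 (36.7%) had an MLL3/4 peak with DOX and none without it (gained MLL3/4), 1483 (22.2%) already lay on an MLL3/4 peak of uninduced cells (prior MLL3/4) and 387 (5.80%) lay on a MYC-tag peak of uninduced cells.

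The study followed how SOX9 diverts epidermal stem cells (EpdSCs) towards the hair follicle, using CUT&RUN (CNR), which maps a protein on chromatin from the short DNA fragments that an antibody-tethered nuclease releases. The cultured cells were keratinocytes of male CD1 mouse back skin, labelled K14rtTA; TRE-myc-Sox9 for WT-SOX9, K14rtTA; TRE-myc-Sox9noTA for SOX9 without its transactivation domain (dTA-SOX9) and K14rtTA; TRE-myc-Sox9noHMG for SOX9 lacking the HMG domain with which it contacts DNA (dHMG-SOX9). In the methods of the study the 3 variants were delivered by lentivirus into Krt14-rtTA cells and selected with puromycin, so that rtTA, driven by the epidermal *Krt14* promoter, was shared by all of them, the uninduced WT-SOX9 cells included. These methods describe primary cells as taken from newborn male pups. DOX was given at 1 µg/ml, and how long it was given before CNR is not stated in the sources used here. In vivo, EpdSCs were sorted from back skin of male CD1 mice, K14rtTA; TRE-myc-Sox9, at D0 (postnatal day 21, before DOX), W1 (day 28), W2 (day 35) and W6 (day 63) of DOX and from grafted skin at W12, so a later week also means an older animal and, at W12, a graft. By the methods of the study, the skin for W12 came from newborn pups and was grafted onto immunocompromised female Nude mice. Each list was called on 2 pooled samples, apart from 2 lists of replicate 1 alone, so no spread between replicates could be had and no test between groups was made. Every interval below is a 95% interval over sites and covers counting error only. The 2 samples behind the MLL3/4 list of WT-SOX9 with DOX are both described as replicate 2, although their titles number them 1 and 2. That list held 10543 peaks against 33975 without DOX, and the depth of both is unknown.

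SOX9 is an HMG-box factor that can bind its word in closed, nucleosome-covered DNA, and it specifies hair follicle stem cells in the skin. SOX family members bend DNA around a CATTGT or CTTTGT core, and SOX9 can bind as a dimer to 2 such cores that point in opposite directions. MLL3 and MLL4 (KMT2C and KMT2D) place monomethylation on histone H3 lysine 4 at enhancers, an early step before an enhancer opens.

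To show what these sites look like, 101 bp around the centre of maximum MYC-tag signal are printed for 7 of them, from mm10 (GRCm38.p6), + strand, 5′ to 3′. Capitals mark the SOX words searched on both strands, namely CCATTGT or CCTTTGT or GCATTGT or GCTTTGT and their reverse complements. The first 3 are among the sites of highest total signal, and they share a sequence that resembles itself when shifted by 21 bp. The next 2 hold a facing pair outside such sequence, that is a core read ACAATG or ACAAAG followed within a few bases by a core read CATTGT or CTTTGT. The last 2 contrast a site with SOX9 and MLL3/4 in vivo against a repeated stretch of 4 SOX words that no other list holds. A match to a word is a description of the letters and does not show binding there.
near Plekhb2, chr1:35115870-35115970: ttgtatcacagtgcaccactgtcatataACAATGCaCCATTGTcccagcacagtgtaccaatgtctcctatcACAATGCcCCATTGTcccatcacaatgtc
Grm7 intron, chr6:111142717-111142817: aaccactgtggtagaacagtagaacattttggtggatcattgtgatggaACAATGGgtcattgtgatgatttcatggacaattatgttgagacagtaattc
Dpp10 intron, chr1:123495309-123495409: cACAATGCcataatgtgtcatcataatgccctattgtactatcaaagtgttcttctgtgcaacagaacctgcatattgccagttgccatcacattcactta
Vdr, 868 bp from a transcription start, chr15:97897631-97897731: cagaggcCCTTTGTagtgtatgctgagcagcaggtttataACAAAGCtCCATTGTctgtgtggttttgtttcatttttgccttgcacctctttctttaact
near Gdf6, chr4:9763483-9763583: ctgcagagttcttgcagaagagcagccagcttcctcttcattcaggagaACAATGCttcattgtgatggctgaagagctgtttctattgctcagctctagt
Dlgap2 intron, chr8:14616519-14616619: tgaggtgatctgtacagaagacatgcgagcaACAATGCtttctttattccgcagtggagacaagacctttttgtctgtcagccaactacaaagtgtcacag
near Fcrls, chr3:87305477-87305577: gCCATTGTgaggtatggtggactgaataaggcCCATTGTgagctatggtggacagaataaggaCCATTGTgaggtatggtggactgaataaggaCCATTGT

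WT-SOX9 sites without MLL3/4 were the weaker SOX9 sites. Their maximum MYC-tag signal had a median of 2134 RPKM (quartiles 1970 and 2627, highest 9850), that is, a read density that the authors scaled to the library. The values are whole multiples of 164 RPKM. This step was taken as 1 fragment among 6.09 M, with coverage counted in fragments at each base, which the sources do not state. On that reading the median site rested on 13 overlapping fragments and the weakest on 11. The median was 2955 RPKM (18 fragments) at sites with gained MLL3/4 and 2298 RPKM (14 fragments) at sites with prior MLL3/4. The peaks were also narrower, with a median width of 143 bp against 234 bp and 197 bp. The list was kept by the authors above 1800 RPKM, and 434 of the sites without MLL3/4 (18.5%) had exactly the lowest maximum, 1806 RPKM.

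The share without MLL3/4 fell as the SOX9 signal grew. Among all WT-SOX9 sites it was 44.7% at 11 fragments, 50.6% at 12, 40.7% at 13, 38.1% at 14 to 16, 29.2% at 17 to 22 and 14.7% at 23 fragments and more. The share with gained MLL3/4 went the other way, from 20.3% and 19.2% at 11 and 12 fragments to 61.0% at 23 and more. Of the strongest sites, 190 of 1296 still had no MLL3/4 peak. At sites with gained MLL3/4 the maximum of the MLL3/4 peak was itself low where SOX9 was weak, with a median coverage of 9 at 11 SOX9 fragments and 14 at 23 and more, and the lowest at a gained site was 4. The lowest maximum in that whole MLL3/4 list was 3, and MLL3/4 under the level of calling was not tested. Because of this relation to SOX9 signal, shares at sites with gained or prior MLL3/4 are also given below after weighting them to the sites without MLL3/4 by these 6 bins of maximum signal. The weighting leaves total signal and peak width unmatched, and a wider peak meets an overlap of 1 bp more easily.

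**Figure D1:**
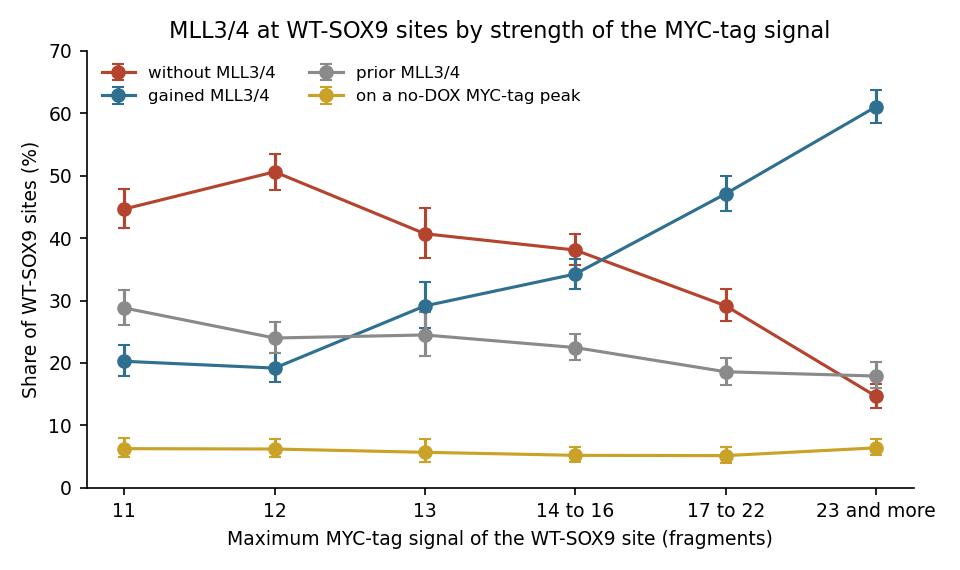
Share of WT-SOX9 sites (y axis, percent) without MLL3/4, with gained or prior MLL3/4, or on a no-DOX MYC-tag peak, by the number of fragments at the maximum of the MYC-tag signal (x axis). Points are shares and bars 95% Wilson intervals; the share without MLL3/4 ended at 14.7% and the share with gained MLL3/4 at 61.0% in the strongest sites.

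The edge of the rule touched few sites. Of the sites without MLL3/4, 35 had an excluding peak within 100 bp, the nearest at a gap of 2 bp, and 139 (5.91%) within 500 bp. On the other side, 23 excluded sites were overlapped by 50 bp or less, the smallest overlap being 1 bp. The 35 had a median maximum of 2134 RPKM and the 23 one of 1970 RPKM. The nearest MLL3/4 peak of uninduced cells lay at a median of 26453 bp, against 20421 bp for sites with gained MLL3/4, and within 10 kb for 29.3% and 33.9% of them. Lists of replicate 1 alone, which share a sample with the lists of the rule, held a MYC-tag peak at 7 of the 2350 sites and an MLL3/4 peak at 36, against 9.07% and 28.5% of all WT-SOX9 sites.

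A SOX word lay in the 101 bp window of 935 of the 2350 sites (39.8%, 37.8 to 41.8), against 34.3% of all WT-SOX9 windows and 6.77% of windows of the same width moved by 1 kb to each side. The ratio to those control windows was 5.88 (5.23 to 6.61). Sites with gained MLL3/4 held a word in 39.0%, a difference of 0.74 percentage points with an interval of -2.02 to 3.51. Once weighted by bins of maximum signal, the share at gained sites was 34.7% (32.4 to 37.1), and that at sites with prior MLL3/4 was 22.5% (20.4 to 24.6). Within the sites without MLL3/4 the share climbed with SOX9 signal, from 32% at 11 fragments to 53.2% at 23 and more. Of the 4 spellings, CCATTGT stood 9.17 times above its control windows, and GCTTTGT 3.54 times. The words followed by a further T were found in 15.4% of the windows, 14.4 times the control share, against 9.31 times at gained sites.

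Among the words of other skin factors, the AP1 word was more frequent than in control windows. The AP1 word TGACTCA, bound by FOS and JUN, was in 117 windows (4.98%, 4.17 to 5.93), against 7.12% of all WT-SOX9 windows and 1.77% of control windows, a ratio of 2.82 (2.14 to 3.72). Sites with prior MLL3/4 held it in 15.0%, a difference of -9.99 points for the sites without MLL3/4 (-12.1 to -8.02), while gained sites had 4.61%. The words of GATA factors (2.21% against 2.49% in control windows), RUNX factors (3.11% against 2.55%), TEAD factors (4.89% against 5.45%) and TFAP2 factors (1.57% against 1.23%) had intervals of the ratio that included 1. Over all WT-SOX9 windows these shares were 2.41%, 3.18%, 5.71% and 2.19%. The CTCF word was in 6 windows and the TP63 word in 1, against 0.18% and 0.03% of all WT-SOX9 windows.

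Facing pairs of SOX cores were more frequent at sites without MLL3/4 than at sites with it. A core read ACAATG or ACAAAG followed after 3 to 5 bp by one read CATTGT or CTTTGT was found in 129 of the 2350 windows (5.49%, 4.64 to 6.49), against 3.39% of all WT-SOX9 windows and 3 of 4700 control windows (0.0638%). At gained sites it was in 71 of 2451 (2.90%, 2.30 to 3.64), a difference of 2.59 points (1.46 to 3.75), and at sites with prior MLL3/4 in 25 of 1483. Weighted by bins of maximum signal, the shares were 1.86% (1.23 to 2.5) at gained and 1.23% (0.72 to 1.74) at prior sites. The gap was 3 bp in 50 windows, 4 bp in 56 and 5 bp in 23, against 5 at 2 bp and 3 at 6 bp. The printed *Vdr*, *Gdf6*, *Grm7* and *Plekhb2* windows hold a facing pair at a gap of 3 bp. Pairs at the same gaps that pointed away from each other were in 6 windows, and pairs on 1 strand in 3. Cores on the same strand were frequent at another gap, 1 bp, in 41 windows (1.74%, 1.29 to 2.36) against 0 of 4700 control windows, and over gaps of 0 to 10 bp in 63 windows. Gained sites held such a pair at 1 bp in 34 of 2451 windows (1.39%, 0.99 to 1.93), with overlapping intervals, and prior sites in 6 of 1483.

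The share of windows with a facing pair grew with SOX9 signal. Among sites without MLL3/4 it was 2.07% at 11 fragments, 3.98% at 12, 4.66% at 13, 5.58% at 14 to 16, 8.43% at 17 to 22 and 13.2% at 23 and more. At gained sites it was 0.51% at 11 fragments and 5.56% (4.17 to 7.39) at 23 and more. The 2 intervals did not overlap in the strongest sites, where that of the sites without MLL3/4 was 9.07 to 18.7, but they did overlap at 11, 12 and 13 fragments. Prior sites had 15 of 232 at 23 fragments and more (6.47%, 3.96 to 10.4), which overlaps the interval of the sites without MLL3/4, as it did at 11 and at 13 fragments. Pair-bearing sites without MLL3/4 had a median maximum of 2462 RPKM, against 1970 RPKM where no core was found. Of the 129, 65 (50.4%, 41.9 to 58.9) lay on a SOX9 peak in vivo, against 32.6% of windows with a core but no such pair and 29.9% of windows without a core. The share was not above the 54.6% of all WT-SOX9 sites, and pair-bearing gained sites also had the higher share, 80.3% against 54.7% with a core but no pair. None of the 129 lay on a dTA-SOX9 peak (Wilson interval 0 to 2.89%), and 3.48% (2.64 to 4.57) of windows with a core but no pair did, so the intervals overlap. Elsewhere pair-bearing windows did lie on dTA-SOX9 peaks, 3 of 71 at gained sites and 16 of 25 at prior sites (64%), against 7.16% and 61.6% of windows with a core but no pair.

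**Figure D2:**
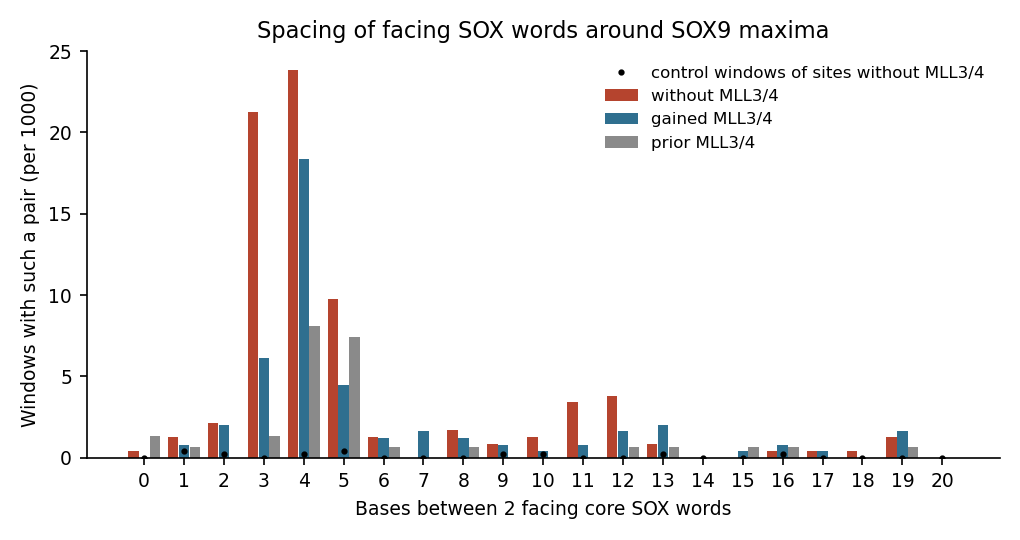
Number of 101 bp windows per 1000 (y axis) with 2 facing SOX cores, by the number of bases between the cores (x axis). Bars stand for WT-SOX9 sites without MLL3/4, with gained and with prior MLL3/4, and dots for control windows of the sites without MLL3/4; the bars at 3, 4 and 5 bp rise above the other gaps, with 50, 56 and 23 windows without MLL3/4.

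Some of the strongest sites without MLL3/4 lay in sequence that partly matched itself at a shift of 21 bp, a pattern noticed only after their values and sequences were seen. A 301 bp window was counted where at least 45% of its bases matched the base 21 bp further on and no other shift of 10 to 100 bp gave a better match. Such windows numbered 26 (1.11%, 0.76 to 1.62), against 0.45% of all WT-SOX9 windows, 0.319% of control windows, 4 gained sites and no prior site. They included the sites ranked 1, 2 and 4 by total signal among the 2350. The match was 71.1% at the site ranked 1 and from 45 to 54.6% at the others. None of the 26 sites had 50% or more of its 101 bp window masked as repeats. A SOX word was in 19 of the 26, a SOX9 peak in vivo overlapped 2 and an MLL3/4 peak in vivo overlapped none (Wilson interval 0 to 12.9%). Over all WT-SOX9 sites these shares were 34.3%, 54.6% and 39.8%. Of the 4 gained sites of this kind, 3 held a SOX word, 2 lay on a SOX9 peak in vivo and none on an MLL3/4 peak in vivo. The site near *Plekhb2* (chr1:35115513-35116182, intergenic, 265944 bp from the start of the gene) had the highest total signal, a maximum of 7223 RPKM (44 fragments), 71.1% self-match and 4 SOX words. It was overlapped by SOX9 peaks at W2 (1910 RPKM), W6 (3022 RPKM) and W12 (3079 RPKM). The reference is that of C57BL/6J and the cells were CD1, and how many copies of these stretches CD1 holds was not tested.

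The densest cluster lay in an intron of *Grm7*, which encodes a metabotropic glutamate receptor of neurons. Chained at gaps of up to 10 kb, 11 sites without MLL3/4 stood within 11276 bp (chr6:111138363-111149638), with maxima of 1806 to 5910 RPKM and a median of 2627 RPKM. No peak of any of the other 17 lists fell within the span. It held 49 SOX words, 4.35 per kb against 0.714 per kb of the whole chromosome, and 9.62% of its bases were masked as repeats. Of the 11 windows, 9 held a SOX word, 6 passed the 21 bp self-match and in all 11 a shift of 21 bp gave the best match. Gained sites flanked the cluster at 111136137 (7716 RPKM) and 111152303 (5746 RPKM). They too matched themselves, the first best at a shift of 42 bp (49.0%) and the second at 21 bp (45.7%). Each held 1 SOX word. A further 3 sites without MLL3/4 followed at chr6:111160964-111163224. The next chains were 5 sites in *Dpp10* on chromosome 1 (123495034 to 123518566, all 5 with the 21 bp self-match), 5 in an intergenic stretch from 112987231 and 4 around the *Plekhb2* site from 35108340, both also on chromosome 1. There were 10 chains of 3 or more sites in all, and 61 chains of 2. Sites without MLL3/4 were mostly solitary, with 7.02% within 10 kb of another one against 17.1% among gained sites.

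**Figure D3:**
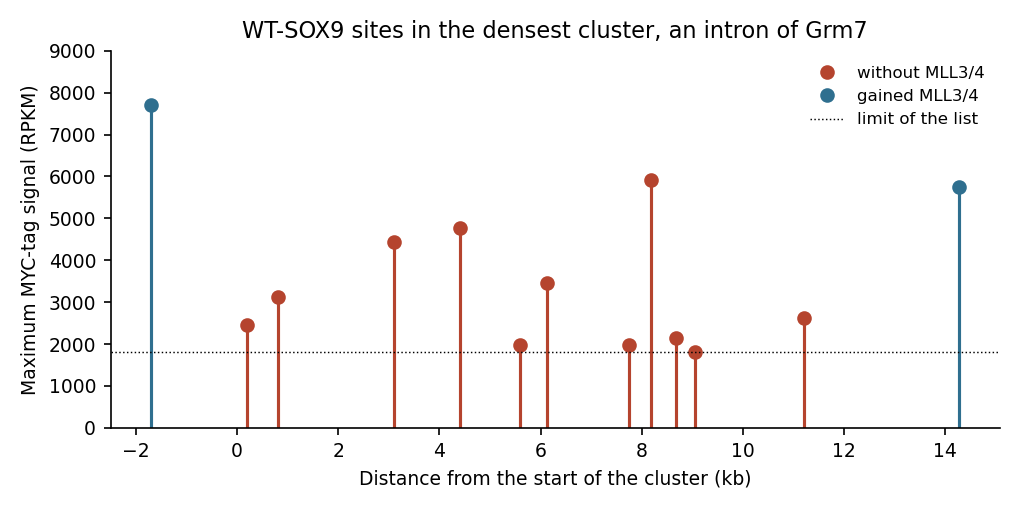
Maximum MYC-tag signal (y axis, RPKM) of the WT-SOX9 sites in and beside the *Grm7* cluster, by distance from the start of the cluster (x axis, kb). Each stem is 1 site and the dotted line the 1800 RPKM limit of the list; 11 sites without MLL3/4, from 1806 to 5910 RPKM, stand between 2 gained sites of 7716 and 5746 RPKM.

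In EpdSCs in vivo, 766 of the 2350 sites (32.6%, 30.7 to 34.5) lay on a SOX9 peak of W1, W2, W6 or W12, against 54.6% of all WT-SOX9 sites and 2.02% of the same sites moved by 10 kb. At D0, before DOX, 10 did (0.43%), against 3.39% of all WT-SOX9 sites but 0.49% of gained sites. Prior sites had 7.01% and sites on a no-DOX MYC-tag peak 25.8%, and the rule left out both. The W1 list overlapped 18.7% of the sites against 37.6% of all WT-SOX9 sites, the W2 list 16.5% against 36.8%, the W6 list 27.1% against 48.5% and the W12 list 22.8% against 39.3%. All 4 lists held 266 sites (11.3%), against 25.8% of all WT-SOX9 sites. W1 was the first week with a peak for 439 sites, W2 for 63, W6 for 195 and W12 for 69, and 1584 were in none of the 4 lists. Depth, as read from the step of the RPKM values, ran from 13.1 M fragments at W2 to 23.8 M at W6 among the 4 weeks and was 32.5 M at D0. The libraries were not sampled to equal depth, so the weeks were not compared with each other.

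The in vivo share was lower than at sites with MLL3/4 in culture, and less so at strong sites. Gained sites reached 52.1%, a difference of -19.5 points for the sites without MLL3/4 (-22.3 to -16.8), and prior sites 85.8%. Weighted by bins of maximum signal, gained sites stood at 43.8% (41.3 to 46.3). At 11 fragments the shares were 20.7% without MLL3/4 and 36.0% with gained MLL3/4, and at 23 fragments and more they were 63.2% (56.1 to 69.7) and 68.5% (65.2 to 71.7). Above 3600 RPKM the difference was -6.62 points, with an interval of -13.7 to 0.26. Where the in vivo peak existed, its median maximum at W1 was 3861 RPKM (quartiles 2478 and 5791) at sites without MLL3/4, 4523 RPKM at gained sites, 4091 RPKM at prior sites and 2708 RPKM over the whole W1 list. The median was also the lowest of the 3 classes in W6 (4072 RPKM, gained 4387, prior 4240) and in W12 (3079 RPKM, gained 3723, prior 3401), and in W2 it was 4775 RPKM against 4889 at gained and 4584 at prior sites. A SOX word was in 43.2% of the sites bound in vivo and 38.1% of those in no in vivo list, and an AP1 word in 8.62% and 3.22%.

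Some sites that lacked MLL3/4 in culture carried it in vivo. An MLL3/4 peak of D0, W1 or W2 overlapped 372 sites (15.8%, 14.4 to 17.4), against 39.8% of all WT-SOX9 sites and 2.40% of the same sites moved by 10 kb. At D0 the count was 77 (3.28%, moved sites 1.45%), at W1 279 (11.9%) and at W2 252 (10.7%), against 21%, 34.7% and 32.8% of all WT-SOX9 sites. MLL3/4 at W1 or W2 without a D0 peak was seen at 295 sites (12.6%), against 18.8% of all WT-SOX9 sites. Gained sites were on an in vivo MLL3/4 peak in 31.0%, or 27.2% (25 to 29.4) when weighted by bins of maximum signal, and prior sites in 77.9%. Above 3600 RPKM, the difference between sites without MLL3/4 and gained sites was -14.4 points (-20.5 to -7.73).

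MLL3/4 in vivo went with SOX9 in vivo. Of the 439 sites with SOX9 at W1, 240 (54.7%, 50.0 to 59.3) had MLL3/4 at W1 and 41 (9.34%) had it at D0, whereas 39 of the 1911 sites without SOX9 at W1 (2.04%) had MLL3/4 at W1. At W2, 206 of 388 SOX9-bound sites (53.1%) had MLL3/4. The share rose over the 4 quartile bins of the in vivo SOX9 maximum at W1, from 28.6% to 43.1%, 69.2% and 90.0% (82.1 to 94.6). Gained sites gave 48.8%, 68.2%, 83.8% and 96.0% in the same bins, and 71.8% (68.7 to 74.9) when weighted to the bins of the sites without MLL3/4. At W2 the shares were 25.7%, 44.1%, 65.0% and 78.7% without MLL3/4 in culture, and 43.6%, 65.3%, 77.0% and 92.7% at gained sites. The bins were set on both classes together.

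**Figure D4:**
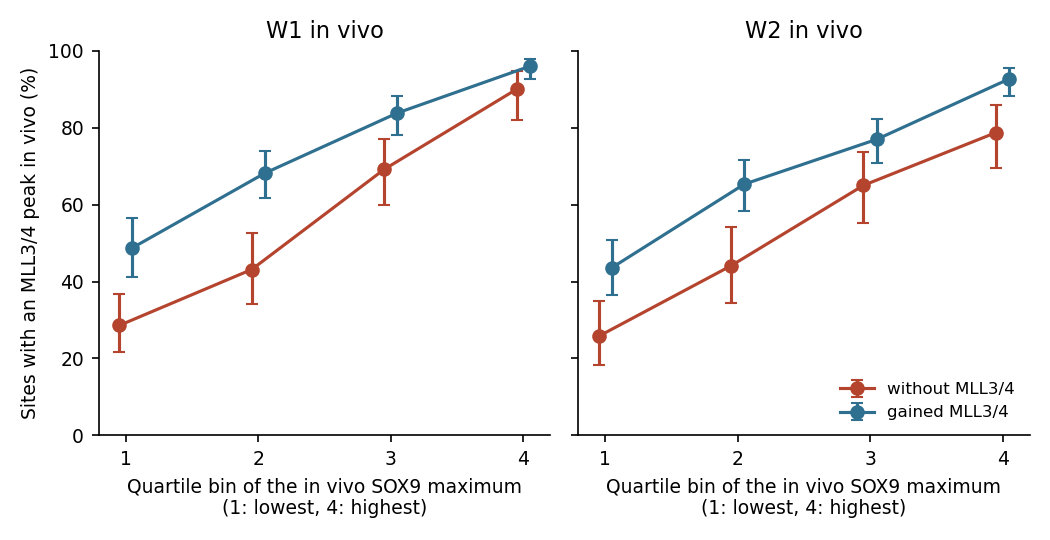
Share of SOX9-bound sites with an MLL3/4 peak in vivo (y axis, percent) at W1 (left) and W2 (right), by quartile bin of the in vivo SOX9 maximum (x axis), for sites without MLL3/4 and with gained MLL3/4 in culture. Points are shares and bars 95% Wilson intervals; at W1 the sites without MLL3/4 in culture rose from 28.6% to 90.0%.

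SOX9 without its transactivation domain was rarely found at these sites. A dTA-SOX9 MYC-tag peak overlapped 85 of them (3.62%, 2.93 to 4.45), against 19.2% of all WT-SOX9 sites and 0.149% of the same sites moved by 10 kb. It overlapped 7.18% of gained sites, or 6.62% (5.37 to 7.86) when weighted by bins of maximum signal, and 56.0% of prior sites. Above 3600 RPKM the difference from gained sites was -3.17 points, with an interval of -6.06 to 0.79. The dTA-SOX9 list was the longer one, with 11341 peaks. A dHMG-SOX9 peak overlapped 13 sites (0.55%), against 6.4% of all WT-SOX9 sites and 0.24% of gained sites. The 6.4% came mostly from sites that the rule left out, 224 of the 387 on a no-DOX MYC-tag peak and 184 prior sites. MLL3/4 peaks of dTA-SOX9 cells lay on 36 sites (1.53%) and those of dHMG-SOX9 cells also on 36, against 23.7% and 25% of all WT-SOX9 sites. Either was on 60 (2.55%), against 27.7% of all WT-SOX9 sites, 0.936% of moved sites, 6.24% of gained and 85.4% of prior sites.

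The 85 sites shared with dTA-SOX9 held an AP1 word more often than the rest, as such sites of the other classes did. An AP1 word was in 14 of them (16.5%, 10.1 to 25.8) against 4.55% (3.76 to 5.49) of the other 2265, and a SOX word in 30.6% (21.8 to 41.0) against 40.1%. At gained sites the AP1 word was in 14.8% of those shared with dTA-SOX9 and 3.82% of the others, and at prior sites in 20.5% and 7.98%. MLL3/4 with dTA-SOX9 was on 14 of the 85 and on 22 of the other 2265. SOX9 in vivo was on 54.1% (43.6 to 64.3) and 31.8% (29.9 to 33.7), and at gained sites on 78.4% and 50.1%.

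By position the sites lay less often at promoters than those with prior MLL3/4, except among strong sites. Within 1 kb of an annotated transcription start lay 228 (9.70%, 8.57 to 11), against 15.2% of all WT-SOX9 sites, 7.96% of gained and 24.5% of prior sites. The difference from gained sites was 1.75 points (0.14 to 3.36), and that from prior sites -14.8 points (-17.4 to -12.4). The difference from gained sites did not hold in every bin of SOX9 signal, with 7.63% against 8.28% at 13 fragments and 7.91% against 10% at 14 to 16. From prior sites the intervals overlapped among strong sites, with 11.2% against 13.7% at 17 to 22 fragments and 8.95% (5.66 to 13.9) against 9.48% (6.35 to 13.9) at 23 and more. Introns held 48.3%, intergenic DNA 37.7% and exons 4.21%. These shares were 44.8%, 35.6% and 4.38% over all WT-SOX9 sites and 48.8%, 38.1% and 5.14% at gained sites. The median distance to a start was 11885 bp, against 12504 bp for gained and 6282 bp for prior sites. Windows with at least 50% of their bases masked as repeats were more frequent, 178 (7.57%, 6.57 to 8.71) against 5.28% of all WT-SOX9 windows and 2.77% of gained ones, and they made up 12.2% of the sites at 11 fragments and 2.63% of those at 23 and more. The median GC content of the windows was 39.6%, against 40.6% at gained and 44.6% at prior sites.

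Of 21938 protein-coding genes, 1046 held at least 1 of the sites in the gene body and 39 at least 3. Their median length was 104 kb, against 17.4 kb for all protein-coding genes and 110 kb for genes with a gained site, so long genes lead the order. *Grm7* (922 kb) held 15, with 3 gained sites. *Prkg1* (1201 kb), a cGMP-dependent kinase, held 8 against 2 gained, and *Dpp10* (724 kb), a subunit of potassium channels, held 6 against 1. *Exoc4*, of the exocyst complex, held 5 against 7 gained, the transcription factor *Foxp1* 5 against 3 and the adhesion molecule *Ntm* 5 against 1. *Adgrl3*, *Arhgap35*, *Celf2* and *Gm37240* held 4 each.

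Gene lists were read with 50 kb to each side of a gene, where 14.1% of all protein-coding genes had a site without MLL3/4, 12.1% a gained and 11.6% a prior site. Of 26 genes of hair follicle stem cells, 7 had a site without MLL3/4, 6 a gained and 9 a prior site. The 7 were *Tcf7l2*, *Nfib*, *Lgr5*, *Runx1*, *Itga8*, *Fst* and *Vdr*. Of 26 epidermal genes, 3 had a site without MLL3/4, 5 a gained and 6 a prior site. Of 15 hedgehog pathway genes the counts were 4, 3 and 1, and the 4 were the ligands *Shh* and *Ihh*, the effector *Gli3* with 3 sites and the transporter *Disp1*. Of 16 genes of epithelial-mesenchymal transition the counts were 2, 3 and 1, and of 20 targets of SOX9 in cartilage 3, 4 and 4, with *Sox6* at 1 site without MLL3/4 against 9 gained. Of 25 glutamate receptor genes the counts were 6, 6 and 0, and of 34 neuronal adhesion genes 11, 7 and 5. The genes of the last 2 lists are long, and the lists were chosen with earlier results of these data known.

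At hair follicle genes the strongest site without MLL3/4 was at *Vdr*, the vitamin D receptor that hair cycling needs (chr15:97897632-97897762). It had 7880 RPKM (48 fragments), 3 SOX words and a facing pair. In vivo its SOX9 maximum ran from 9192 RPKM (W12) and 9566 RPKM (W1) to 14692 RPKM (W6) and 14821 RPKM (W2), and MLL3/4 peaks with a coverage of 7 and 5 stood there at W1 and W2, lists whose median was 7 and lowest value 5, and none at D0. *Nfib*, a factor of hair follicle stem cells, had a site at chr4:82283515-82283673 (3283 RPKM) with a facing pair, on SOX9 peaks of D0 to W12 and MLL3/4 peaks of W1 and W2, and a second one in an exon (2298 RPKM). *Tcf7l2*, an effector of WNT signals, had 2 intronic sites of 2955 and 2134 RPKM that no other list held, the weaker one with a facing pair. The *Lgr5* site (1806 RPKM), in an intron of this stem cell receptor, was also in no other list. With 50 kb to each side, *Nfib* also had 2 gained sites, *Tcf7l2* 1 gained site and *Vdr* 1 prior site.

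Among the loci the study names, *Runx1* had 1 site (chr16:92615128-92615350, intron, 1970 RPKM), beside 1 gained and 3 prior sites. *Ctnnb1* had 1 (chr9:120932460-120932671, 1806 RPKM) and no gained or prior site. It lay 3315 bp from the start of the gene, within 1 kb of an annotated transcription start. These 2 sites without MLL3/4 lay on SOX9 peaks of W1, W2, W6 and W12 and on MLL3/4 peaks of W1 and W2, and neither window held a SOX word. That of *Runx1* also lay on an MLL3/4 peak of uninduced cells in the list of replicate 1 alone. *Vim*, a filament protein of mesenchymal cells, had 1 in an exon (1970 RPKM, 1 SOX word) on SOX9 peaks of W6 and W12, beside 1 gained site. *Trp63*, the epidermal master regulator, had 2 of 2298 and 1806 RPKM that no SOX9 or MLL3/4 list held, the stronger one on a dHMG-SOX9 peak. *Gata3*, *Krt5* and *Sox9* had none within 50 kb, while *Krt5* had 2 gained and 2 prior sites.

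Individual strong sites ranged from SOX9-bound in vivo at W1, W2, W6 and W12 alike to bound at none of these times. The *Dlgap2* site (chr8:14616444-14616749, intron of a scaffold protein of synapses) had 8372 RPKM and lay 79396 bp from the nearest MLL3/4 peak of uninduced cells. Its SOX9 maximum in vivo was 14291 RPKM in the first week, and 12911, 12131 and 12087 RPKM in W2, W6 and W12, and it had MLL3/4 peaks at W1 (coverage 15) and W2 (coverage 7). The site near *Gdf6*, a ligand of the BMP family (chr4:9763474-9763774, intergenic, 80839 bp from the gene), had 5417 RPKM in culture, SOX9 maxima of 3918 to 8098 RPKM in vivo and MLL3/4 at W1 and W2. The site 77 bp from a start in *Arpc1a*, a subunit of the actin-nucleating ARP2/3 complex (chr5:145104299-145104619), had 4761 RPKM and lay 1220 bp from an uninduced MLL3/4 peak. The site in an intron of the non-coding gene *4930533N22Rik*, with *Sv2b* as the nearest protein-coding gene (chr7:75063823-75064037, 5910 RPKM), held no SOX word. Both had SOX9 at all 4 times and MLL3/4 at W1 and W2. The site near *Shkbp1* (chr7:27340776-27340991, 6731 RPKM), wholly in masked repeats, had SOX9 at all 4 times and MLL3/4 at W1.

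By contrast, the intronic sites of *Grm7* (chr6:111142576-111143227, 4761 RPKM) and *Dpp10* (chr1:123495034-123495599, 3612 RPKM) and the intergenic one near *Pik3c3* (7387 RPKM, 56.4% of the window masked) were in none of the other 17 lists. The printed site near *Fcrls* (chr3:87305364-87305614) had 4 SOX words, the joint highest number in a window, at 1806 RPKM, the lowest value in the list, and was also in no other list.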

How the data were processed

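CNR peak lists of SOX9, MLL3/4 and MYC-tagged SOX9 were analysed, 18 lists from 32 of 41 samples. Of these, 16 lists were called on 2 pooled samples each and 2 on replicate 1 alone. The other 9 samples (JUN, ARID1a and BRG1) were not analysed here. Groups came from the sample labels.

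The authors used Skewer for trimming, Bowtie2 2.2.9 for alignment to mm10 and Picard against duplicates, took fragments up to 120 bp with SAMtools 1.3.1, made coverage with deepTools 3.1.2 and called peaks with SEACR (stringent, 0.01). The deposited maximum signal is in RPKM for SOX9 and MYC-tag lists and for both replicate 1 lists. It is unscaled coverage for the deposited pooled MLL3/4 lists. The deposited total signal is a score that adds up the coverage along a peak. Weak peaks are therefore set by depth and by the 1800 RPKM limit of the authors, and an absent peak does not show an absent protein. The depth of the unscaled lists is unknown.

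Here, peaks shared at least 1 bp, and local background came from moving sites by 10 kb to each side. Fragments per site were the RPKM divided by the largest step of which all values were whole multiples, and that step was assumed to be 1 fragment. SOX, AP1 and the other words were counted in 101 bp windows of GRCm38.p6 against windows 1 kb to each side, and genes came from GENCODE vM21. Words were TGACTCA for AP1, AGATAAG or AGATAAC for GATA factors, AACCACA for RUNX, GGAATG for TEAD, TGTTTAC or TATTTAC for forkhead factors and TTGGCA for NFI factors, with those of TFAP2, CTCF and TP63 by their consensus, all on both strands. Intervals were Wilson for shares and Newcombe for differences of shares. Weighted shares averaged the 6 bins of fragments used for the plot by signal, with the weights of the sites without MLL3/4. The regions named were the 5 of highest total signal, the 5 highest with SOX9 at W1, W2, W6 and W12, the 3 highest with MLL3/4 at W1 or W2 and not D0, and the 3 with most SOX words. Genes named were the 10 with most sites, 7 loci that the study names, and members of the lists. The sites, lists and words were chosen with earlier results of these data known. The weighting, the quartile bins, the 21 bp self-match and the split of the sites shared with dTA-SOX9 were added after seeing the values. The scripts were tested on simulated data. Python 3.11.15, pandas 2.3.3, numpy 2.4.6, scipy 1.17.1, pysam 0.24.0 and matplotlib 3.10.9 were used.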

Additional observations from a re-analysis of the deposited data

How the results depend on the processing

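For 9 results, 66 alternatives were run, and in 48 the value stayed within the 95% interval of the main one, or within 1.5 times for the number of sites. These values carry no direction against another class. Of the 18 others, most came from stronger sites. Above 3600 RPKM, 228 sites without MLL3/4 were left, with SOX9 in vivo at 61.0%, MLL3/4 in vivo at 23.7%, dTA-SOX9 at 4.82%, MLL3/4 of dTA-SOX9 or dHMG-SOX9 cells at 1.32%, a SOX word in 52.6% and a facing pair in 12.3%. For the 50% of sites with the highest total signal the shares were 39.2% for SOX9 in vivo, 17.4% for MLL3/4 in vivo, 5.02% for dTA-SOX9, 43.8% for a SOX word and 8.17% at promoters. Using the pooled and replicate 1 lists together gave 1.82% for MLL3/4 of dTA-SOX9 or dHMG-SOX9 cells. Without self-matching or masked windows, chosen after seeing the data, SOX9 in vivo was 34.6%. By construction the longer word gave 15.4%, the shorter word 65.4%, windows reaching 100 bp to each side 50.2% and promoters of 2.5 kb 18.9%. With the replicate 1 lists in place of the pooled uninduced lists, 2329 sites were chosen, and the 8 results computed with them stayed within those limits, the ratio of the SOX word to control windows not being among them. Of 11 named regions under 66 checks, the one near *Fcrls* dropped out above 3600 RPKM. No paired analysis was possible because each group had 1 list of pooled replicates.

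Limits lie in the calling. The MLL3/4 list of WT-SOX9 with DOX was short, its depth is unknown and the labels of its replicates conflict, and MLL3/4 below the level of calling was not tested. The cause of the lower in vivo shares at weak sites was not tested. Counting intervals over sites hold no spread between cultures or animals, and neighbouring sites of a cluster are not independent.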

Other observations

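Chromosome X held 55 of the sites without MLL3/4 (2.34%, 1.80 to 3.03), against 1.54% of all WT-SOX9 sites, 1.31% of sites with gained MLL3/4 and 0.877% of sites with prior MLL3/4. Windows of 301 bp that matched themselves at any shift of 10 to 100 bp were not more frequent than in control windows, 2.68% against 3.64%. The surplus over control windows was at a shift of 21 bp. At any shift, the share was above that of gained sites (0.82%, 0.53 to 1.26) and of prior sites (0.74%, 0.41 to 1.32), with an interval of 2.10 to 3.42. Of the 26 windows with a shift of 21 bp, 14 lay on chromosome 1 and 8 on chromosome 6. Forkhead words were in 2.94% of windows without MLL3/4, against 2.29% of all WT-SOX9 windows and 3.85% of control windows, and the NFI word in 4.30%, against 5.1% of all WT-SOX9 windows and 5.11% of control windows.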
